A study of Mus musculus with 12 samples.

Results

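The 38 Hox genes listed for this account were followed through 12 ATAC-seq libraries of mouse cells that the labels call MSCLCs. ATAC-seq cuts accessible DNA with a transposase, and a peak marks a stretch where the cuts pile up. Peaks of the 12 deposited lists that overlapped by at least 1 bp were merged into 153346 regions, and a region was given to a Hox gene when that gene's interval was the nearest of all protein-coding genes within 100 kb. This gave 130 regions, 0.0848% of all, at 36 of the 38 genes. Hoxa4 and Hoxa6 held none: both lie within the long RefSeq interval of Hoxa3, and no region overlapped them. The genes were listed by name and cluster, not by a threshold on their values, and a region exists only where at least 1 library has a peak. The series title names YAP1, the fusion EWS::FLI1, IGF-1 and bone mesenchymal stem cells, and the design text names WT and 3 kinds of EFPrx1 cells. The Wt group held 4 libraries (cultures WT_1, WT_2, BM and S_203), and Wt_IGF1 held 1 (BM). The EF group held 4 libraries, in which lines S_220 and S_221 each appeared on both flowcells, so its 4 libraries came from 2 line names. EF_IGF1 held 2 libraries (S_220 and S_221), and EF_IGF1_xeno held 1 (S_221). The labels do not spell out EF, xeno or the way IGF1 was given, and for single libraries they state no driver of a transgene and no animal age. Flowcell BSF_0654 carried replicates 1 and 2 of Wt and of EF, and flowcell BSF_1013 all else.

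Hox genes encode homeodomain transcription factors that give cells their place along the body axis. In mammals they sit in 4 clusters, a to d, and genes of the same number in different clusters are paralogs that arose by duplication. Low numbers lie at the 3′ end of a cluster and act in anterior tissues, while high numbers lie at the 5′ end and act in posterior tissues and in the outer limb. Polycomb proteins keep the unused stretch of a cluster closed, trithorax proteins keep the used stretch open, and mesenchymal cells keep in culture the Hox pattern of the place they came from. Here paralogs 1 to 3 are called anterior, 4 to 8 central and 9 to 13 posterior.

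Promoter sequences of 7 genes show the stretches on which the results below turn. Each window runs from 250 bases before to 50 after a gene start in RefSeq (GRCm38.p6), is written 5′ to 3′ on the gene's strand, and has motif matches in capitals. Hoxa3, Hoxd8 and Hoxd3 followed the rule for named genes, and Hoxa5, Hoxd9, Hoxa13 and Hoxd11 were chosen after their values were seen. A peak overlapped the Hoxa3 window in 10 libraries, the Hoxd8 window in 5 and the Hoxd3 window in 4. The Hoxa5 and Hoxd9 windows were overlapped in 5 and 7 libraries, among them both EF libraries of line S_221 and neither of line S_220. The Hoxa13 and Hoxd11 windows were overlapped in the same 3 libraries, Wt replicate 4 and both EF libraries of line S_220. The Hoxd11 window printed is that of its first start, and the window of its second start was overlapped in 0 libraries.
Hoxa3 promoter, chr6:52213018-52213317, minus strand: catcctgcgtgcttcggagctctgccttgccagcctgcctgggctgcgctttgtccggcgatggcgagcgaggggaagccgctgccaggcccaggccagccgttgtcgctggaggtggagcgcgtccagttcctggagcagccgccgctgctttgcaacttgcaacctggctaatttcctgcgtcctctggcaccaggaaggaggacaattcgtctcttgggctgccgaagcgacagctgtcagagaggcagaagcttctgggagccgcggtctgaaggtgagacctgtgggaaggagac
Hoxd8 promoter, chr2:74704365-74704664, plus strand: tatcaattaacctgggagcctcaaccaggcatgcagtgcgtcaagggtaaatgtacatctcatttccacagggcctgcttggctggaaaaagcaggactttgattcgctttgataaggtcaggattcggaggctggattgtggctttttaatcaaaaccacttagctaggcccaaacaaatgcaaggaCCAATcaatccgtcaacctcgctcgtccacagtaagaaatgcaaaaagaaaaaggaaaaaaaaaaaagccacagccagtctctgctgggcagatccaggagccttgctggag
Hoxd3 promoter, chr2:74711743-74712042, plus strand: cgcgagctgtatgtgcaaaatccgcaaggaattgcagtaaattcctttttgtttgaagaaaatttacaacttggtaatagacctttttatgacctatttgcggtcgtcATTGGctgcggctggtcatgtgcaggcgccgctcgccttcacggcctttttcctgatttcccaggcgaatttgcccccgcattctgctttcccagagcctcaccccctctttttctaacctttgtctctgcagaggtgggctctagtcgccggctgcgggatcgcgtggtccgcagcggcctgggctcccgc
Hoxa5 promoter, chr6:52204538-52204837, minus strand: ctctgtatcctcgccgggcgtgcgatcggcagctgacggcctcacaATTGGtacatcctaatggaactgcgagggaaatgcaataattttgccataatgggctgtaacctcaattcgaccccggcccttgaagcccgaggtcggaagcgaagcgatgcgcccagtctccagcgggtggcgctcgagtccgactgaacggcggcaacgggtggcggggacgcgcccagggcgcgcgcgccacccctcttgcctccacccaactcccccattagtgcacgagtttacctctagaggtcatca
Hoxd9 promoter, chr2:74697513-74697812, plus strand: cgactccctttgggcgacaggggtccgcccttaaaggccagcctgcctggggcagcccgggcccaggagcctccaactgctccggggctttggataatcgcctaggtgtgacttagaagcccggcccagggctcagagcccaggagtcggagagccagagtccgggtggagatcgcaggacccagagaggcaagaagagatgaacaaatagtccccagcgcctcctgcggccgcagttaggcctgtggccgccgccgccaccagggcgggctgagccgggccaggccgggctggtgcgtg
Hoxa13 promoter, chr6:52260831-52261130, minus strand: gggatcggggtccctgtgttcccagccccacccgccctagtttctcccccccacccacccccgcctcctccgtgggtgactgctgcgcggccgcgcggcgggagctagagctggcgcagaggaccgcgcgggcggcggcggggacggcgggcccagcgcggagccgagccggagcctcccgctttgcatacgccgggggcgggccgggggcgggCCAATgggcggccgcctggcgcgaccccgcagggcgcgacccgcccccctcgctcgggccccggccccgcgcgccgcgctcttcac
Hoxd11 promoter, chr2:74679308-74679607, plus strand: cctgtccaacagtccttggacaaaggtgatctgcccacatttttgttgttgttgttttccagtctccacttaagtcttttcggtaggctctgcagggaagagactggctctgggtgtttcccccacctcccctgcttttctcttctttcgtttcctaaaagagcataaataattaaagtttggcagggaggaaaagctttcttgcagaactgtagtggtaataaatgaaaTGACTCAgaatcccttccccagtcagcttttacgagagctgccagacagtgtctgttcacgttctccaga

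RefSeq's table held 24 such windows for 22 of the Hox genes. Both strands were searched for 6 motifs, whose matches can overlap each other. CCAAT, the box bound by NF-Y, stood in 15 of the 24 Hox windows, against 37.4% of 32851 windows of the same length over all genes. In the printed windows it is the only capital stretch of Hoxa5, Hoxd8, Hoxd3 and Hoxa13, on either strand, and the Hoxa3 and Hoxd9 windows hold no match. TATAAA stood in 4 Hox windows (13.6% of all), TGATNNAT, a site of HOX with a TALE homeodomain partner, in 4 (8.85%), and GGAATG, a TEAD site, in 2 (14.7%). TGANTCA, the AP-1 site that stands in the Hoxd11 window, occurred in 1 (7.81%), and GGAAGGAA, a repeat of the ETS core, in 1 (3.79%). The Hox windows had a median GC content of 57.6%, against 52.7% over all windows, and a median observed to expected CpG ratio of 0.627, against 0.384. These matches describe letters and are not measured binding.

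Before any comparison, 4 libraries need a remark. Wt replicate 1 had 7748 peaks, called none of the 130 Hox regions and had a peak at 3 of 18 mesenchymal marker genes, where the other 11 libraries had one at 14 to 18. Wt replicate 2 called 78% of 109 regions at hematopoietic markers, against 8.26% to 32.1% in the other 11 libraries, and 21.8% of 344 regions at mesenchymal markers. It had peaks at 14 of 15 hematopoietic genes and the other libraries at 6 to 12, so the share of regions sets it apart more than the gene count, and its part in the Wt results was not tested. EF replicate 2 had 27332 peaks, and the other libraries, Wt replicate 1 aside, 43416 to 83718. EF_IGF1 replicate 1 is labelled S_220 but went against that label. Of 8244 regions called in both EF libraries of S_220 and neither of S_221 it called 8.39%, and of 3946 regions of the opposite kind it called 68.9%. The library labelled S_221, EF_IGF1 replicate 2, called 12.3% and 78.4%. Wt replicates 3 and 4 and Wt_IGF1, of neither line, called 27.9%, 36.4% and 44.4% of the first set. Of the second set they called 53.5%, 62.1% and 71.9%. The 68.9% is thus no mark of S_221 by itself, and the low 8.39% is what goes against the label. Whether line, label or IGF1 accounts for it was not tested. EF_IGF1 replicate 1 is written below as the library labelled S_220. Read depth is not given in the lists, so the number of peaks is the only sign of it here.

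The 130 regions were spread unevenly over the clusters. Cluster c on chromosome 15 held 46 regions, cluster b on chromosome 11 held 37, cluster a on chromosome 6 held 32 and cluster d on chromosome 2 held 15. By class, 64 were posterior, 35 central and 31 anterior. Within the span from the first to the last listed gene, cluster a was the most densely covered, with 30 regions over 98.5 kb (3.05 per 10 kb). Cluster d had 15 over a similar 96.9 kb (1.55 per 10 kb), cluster b 28 over 174 kb (1.61) and cluster c 31 over 116 kb (2.68). The longest stretch without a region was 34.9 kb in cluster b, where no listed gene lies, and 29.1 kb in cluster d, across Hoxd3. In cluster a it was only 9.08 kb, across Hoxa3, and in cluster c 11.3 kb, between and across Hoxc4 and Hoxc5. All regions of cluster d lay within 1388 bp of their gene, while Hoxc13 had regions up to 80750 bp away.

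No Hox region was called in all 12 libraries, since Wt replicate 1 called none, and 4 were called in the other 11. These lay inside Hoxa3 (2 regions), inside Hoxd3 and 567 bp from Hoxa9. At the other end, 37 of the 130 regions were called in 1 library only. Of all 153346 regions, 55661 were called in 1 library, 6962 in 11 and 5784 in all 12. Regions of 1 library were thus no more frequent among the Hox regions than among all regions. The Hoxd3 region of 471 bp (chromosome 2, 74715786 to 74716256), 3793 bp from the promoter, was the strongest of the 4. The fold enrichment the authors give its peak was 6.47, 10.4 and 13.3 in Wt replicates 2 to 4 and 12 in Wt_IGF1. It was 10.7, 9.17, 13.3 and 9.21 in EF replicates 1 to 4, 8.9 and 8.49 in EF_IGF1 and 7.93 in EF_IGF1_xeno. These values rank peaks within 1 list and are set side by side only as a description, and the Wt and EF values overlapped. The region with the highest fold in 8 of the 11 libraries was at Hoxc13, 80750 bp outside the gene (chromosome 15, 102839571 to 102840381). It had no peak in Wt replicate 2, 9.91 and 16.7 in Wt replicates 3 and 4 and 13.2 in Wt_IGF1. In EF replicates 1 to 4 it had 18.7, 14.4, 17.7 and 14.8, and in the EF_IGF1 libraries and EF_IGF1_xeno 15.6, 16.6 and 16.6. Apart from such regions Hox peaks were modest: their median fold lay below the median of all peaks in each of the 11 libraries with a Hox call, for example at 5.46 against 6.66 in Wt replicate 2 and at 5.71 against 7.42 in the library labelled S_220.

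**Figure D1:**
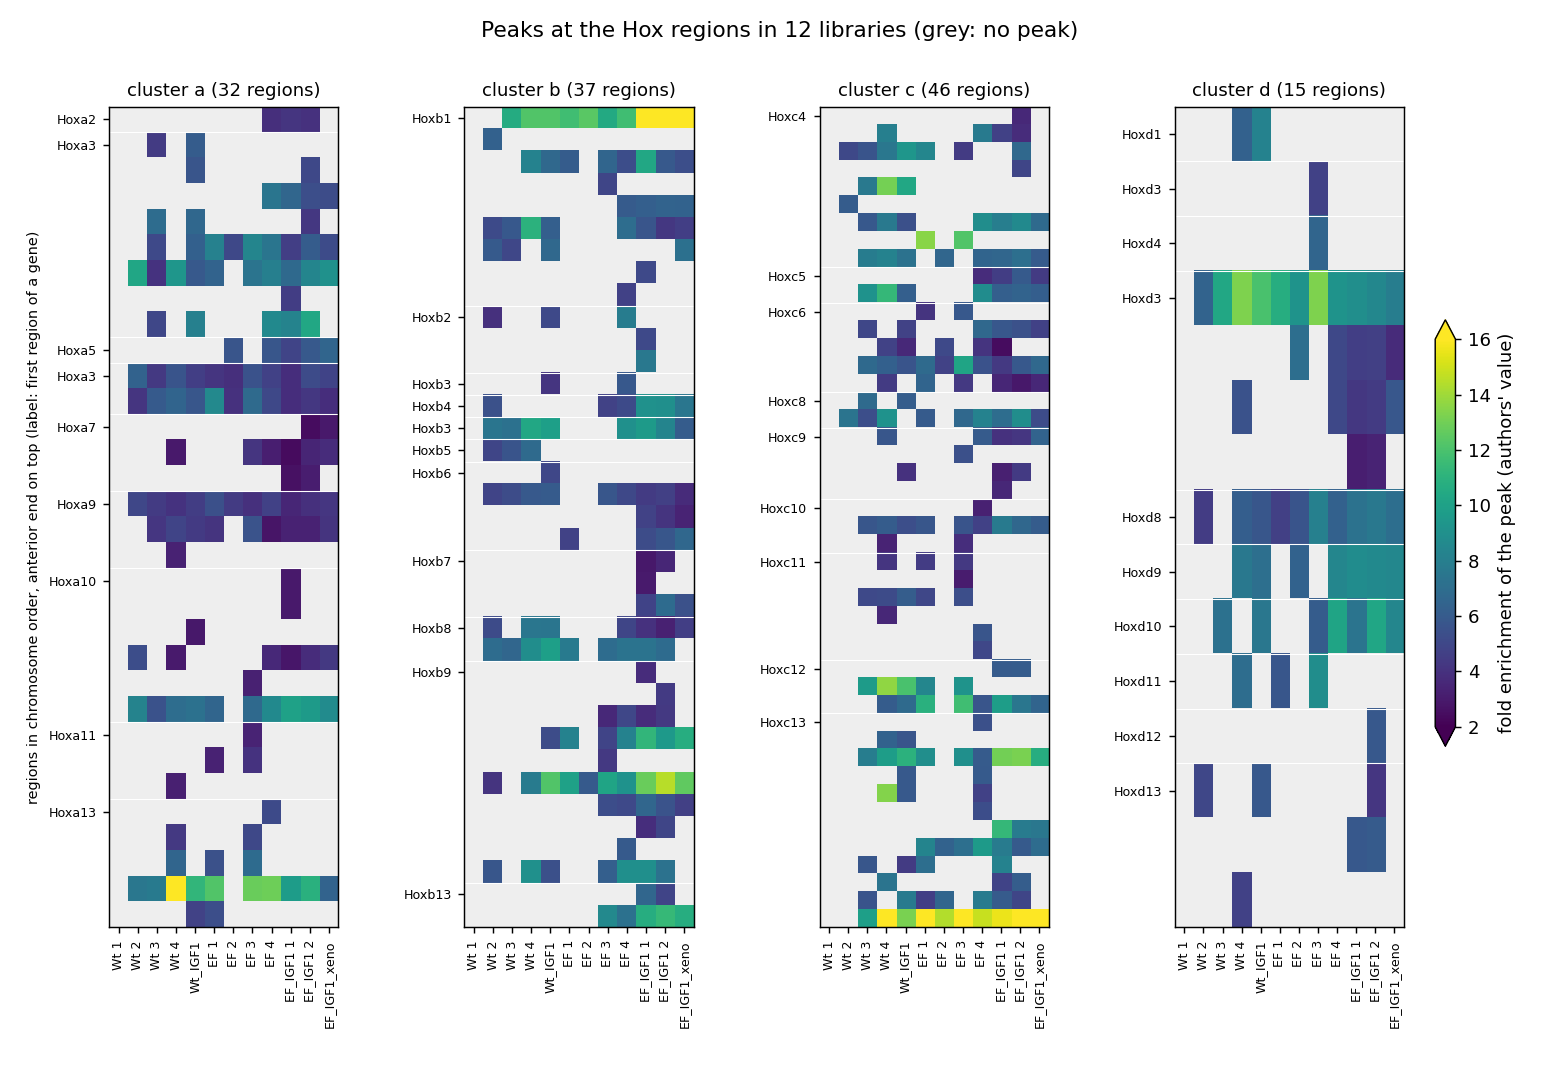
Fold enrichment (colour, the authors' value) of the peak at each of the 130 Hox regions (rows, in chromosome order with the anterior end on top, spaced evenly) in the 12 libraries (columns), by cluster. Grey means no peak. Wt 1 is grey throughout, and the last row of cluster c, at Hoxc13, is among the highest in each library that calls it.

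The share of Hox regions called was highest in EF_IGF1. In Wt replicates 1 to 4 it was 0%, 19.2%, 27.7% and 40.8%, and in Wt_IGF1 42.3%. In EF replicates 1 to 4 it was 27.7%, 13.1%, 38.5% and 48.5%. The EF_IGF1 libraries had 57.7% and 56.2%, and EF_IGF1_xeno had 38.5%. Since longer lists call more of everything, each share was divided by that of all 153346 regions in the same library. The ratio was below 1 in all Wt libraries (0, 0.501, 0.783 and 0.934) and in Wt_IGF1 (0.816). It was 0.851, 0.784, 1.17 and 1.14 in EF, and 1.57, 1.42 and 1.44 in the EF_IGF1 libraries and EF_IGF1_xeno, which had the 3 highest values. The group means were 0.554 ± 0.411 (SD, n = 4) for Wt, 0.986 ± 0.197 (SD, n = 4) for EF and 1.5 ± 0.106 (SD, n = 2) for EF_IGF1. The Wt and EF ranges overlapped, and the 2 EF_IGF1 values lay above all 4 EF values. Regions are not replicates and the members were chosen with results known, so no test is given. With only the 20000 peaks of highest −log10 p per library the order changed. The ratio then was 1.08 and 0.867 in EF_IGF1, 1.09 in EF_IGF1_xeno and 0.939, 0.666, 1.16 and 0.504 in EF, so the groups overlapped and the surplus was not seen among the strongest peaks. Markers of epithelial cells moved with the Hox regions only in part. The ratio of their 77 regions was 1.24 and 1.08 in EF_IGF1 and 1.36 in EF_IGF1_xeno. It was 0.759, 1.09, 0.711 and 1.04 in EF and 0.267 to 0.773 in Wt, so the lower EF_IGF1 value lay within the EF range. Peaks stood at 12, 10 and 10 of the 12 epithelial genes in these 3 libraries and at 8 to 12 in EF. In Wt replicates 1 to 4 they stood at 1, 7, 7 and 8, and in Wt_IGF1 at 10. Epcam and Cdh1 had peaks in every library but Wt replicate 1. The part of the epithelial genes in the result was not tested.

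**Figure D2:**
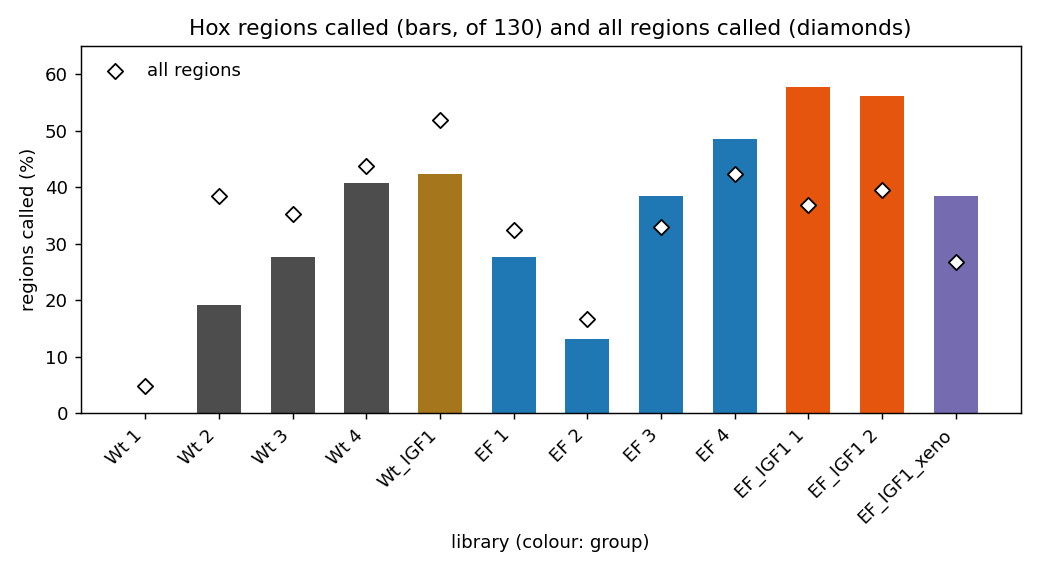
Share of the 130 Hox regions called (bars, percent, coloured by group) and of all 153346 regions called (diamonds, percent) in each library. Bars stand above their diamonds in EF 3, EF 4, both EF_IGF1 libraries and EF_IGF1_xeno, and below them in Wt, Wt_IGF1, EF 1 and EF 2.

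By paralog class, the central genes stood highest in EF_IGF1. Their ratio was 1.79 and 1.81 in the 2 libraries and 1.93 in EF_IGF1_xeno, against 0.791 to 1.08 in the 4 EF libraries and at most 1.05 in Wt. Anterior genes had 1.75, 1.47 and 1.69, against 0.694 to 1.37 in EF. Posterior genes had 1.36, 1.19 and 1.05, within the EF range of 0.562 to 1.38. Among clusters, b had 1.91, 1.5 and 1.62 in these 3 libraries and 0.324 to 1.21 in EF. Cluster a had 1.53, 1.42 and 1.52 against 0.937 to 1.33, and cluster c 1.36, 1.26 and 1.22 against 0.782 to 1.18. Cluster d, with 1.45, 1.69 and 1.5, overlapped its EF range of 0.615 to 1.6.

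Single paralog groups departed from this order. Of the 6 regions at Hoxa7 and Hoxb7, factors of the trunk, 5 were called in each EF_IGF1 library and 3 in EF_IGF1_xeno. Of all regions, the EF_IGF1 libraries called 36.8% and 39.5% and EF_IGF1_xeno 26.7%. No other library called more than 1 of the 6. Only the Hoxa7 region at 52217424 to 52217761 was called outside these 3 libraries. The others exist as regions only through EF_IGF1 or EF_IGF1_xeno peaks, so their lack of calls elsewhere was fixed by how regions arose. Paralog group 11, whose Hoxa11 and Hoxd11 pattern the forearm, went the other way. Of its 10 regions, EF replicates 1 and 3 (line S_220) called 4 and 6, EF replicate 4 called 2, and Wt replicate 4 called 5. Of all regions, these libraries called 32.5%, 32.9%, 42.4% and 43.7%, so the counts of EF replicate 1 and Wt replicate 4 were near their background. EF replicate 2, both EF_IGF1 libraries and EF_IGF1_xeno called 0 of the 10, as did Wt replicates 1 and 2, the latter with 60526 peaks. Wt replicate 3 and Wt_IGF1 called 1 each. Each of these 10 regions exists through calls in Wt or EF libraries, several through 1 library only. The 0 in EF_IGF1 and EF_IGF1_xeno was thus partly set by how regions arose. Both groups were picked after their values were seen. Hoxd8, Hoxc8 and Hoxb8, paralog group 8, were covered most evenly, with 3 or 4 of 5 regions in 10 of the libraries, 1 in EF replicate 2 and 0 in Wt replicate 1.

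**Figure D3:**
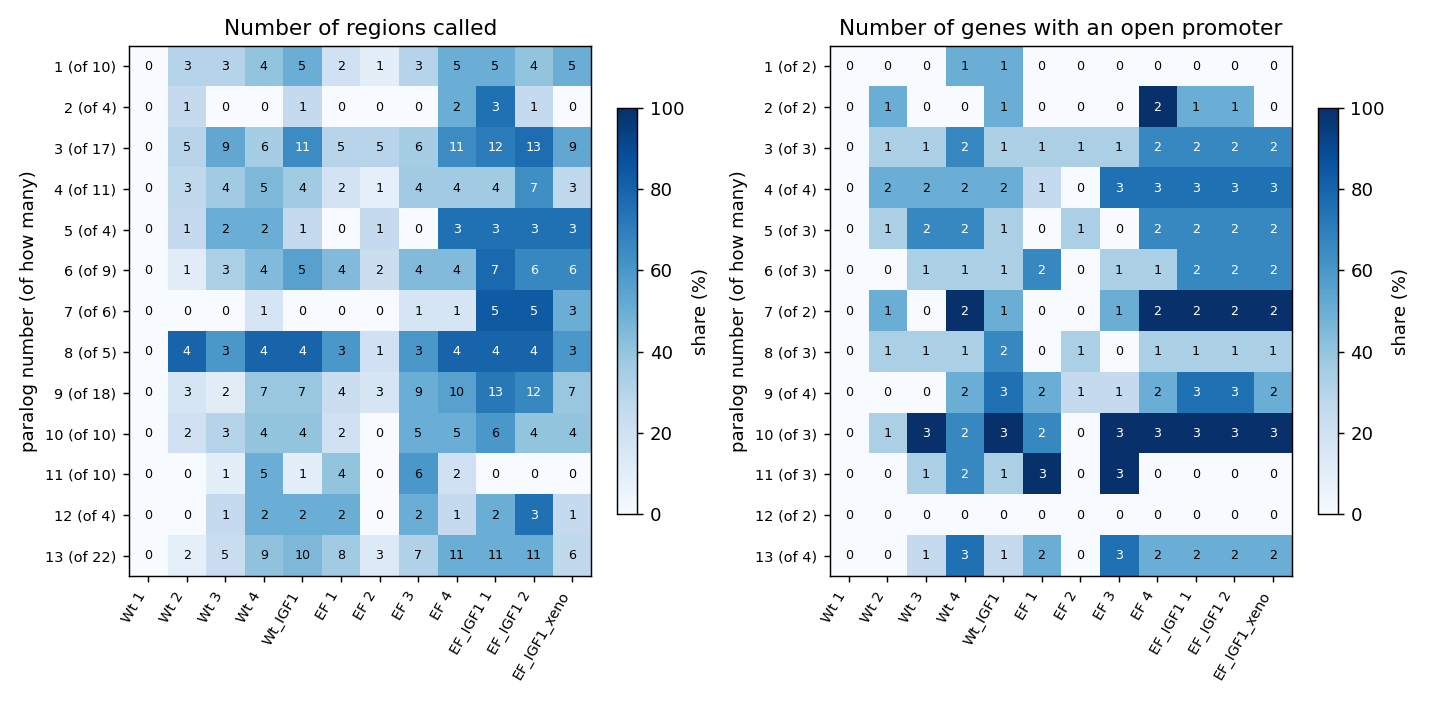
Number of regions called (left) and of genes with an open promoter (right) for each paralog number (rows, with the total in brackets) in each library (columns). Colour gives the share in percent. Paralog 7 is fullest in EF_IGF1 on the left, and on the right full in Wt 4, EF 4, EF_IGF1 and EF_IGF1_xeno. Paralog 11 is fullest in Wt 4, EF 1 and EF 3 and empty in EF_IGF1 on both sides.

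A promoter was called open in a library when a peak of any region lay within 1 kb of the gene's start. For the 16 genes without a start in RefSeq's promoter table either end of the gene was used. Wt libraries had 0, 8, 12 and 20 of 38 promoters open, Wt_IGF1 18, and EF libraries 13, 4, 16 and 20. The EF_IGF1 libraries had 21 each and EF_IGF1_xeno 19. Wt and EF overlapped, and the EF_IGF1 count of 21 was 1 above the highest Wt and EF counts. The share of all gene promoters open in each library was not counted. These counts, and those by class and gene below, therefore cannot be told apart from list length. Of the 15 central promoters, 10 were open in each of the 3 EF_IGF1 and EF_IGF1_xeno libraries and 3, 2, 5 and 9 in EF. Of the 16 posterior ones, 8, 8 and 7 were open there, and 9, 1, 10 and 7 in EF.

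In cluster a, the Hoxa3 promoter was open in 11 libraries, all but Wt replicate 1, and Hoxa6 in none. Hoxa4 and Hoxa10, the latter a regulator of limb and reproductive tract, were open in 10. In cluster b, Hoxb7 and Hoxb9 were open in 7 libraries each, and Hoxb1, the hindbrain gene, and Hoxb3 and Hoxb8 in none. Hoxb7 was open in Wt replicates 2 and 4, Wt_IGF1, EF replicate 4, both EF_IGF1 libraries and EF_IGF1_xeno. In cluster c, Hoxc6, Hoxc10 and Hoxc13 were open in 9 libraries, absent in Wt replicates 1 and 2 and EF replicate 2, while Hoxc12 was open in none. In cluster d, Hoxd8 was open in 8 libraries and Hoxd12 in none. The 3 libraries without the cluster c promoters were those with the fewest peaks or the hematopoietic markers. Cluster c had 3 of its 46 regions called in Wt replicate 2, a ratio of 0.17.

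Hoxa3 with 10 regions, Hoxb9 with 10, Hoxc13 with 12 and Hoxd3 with 5 held the most in their clusters. The RefSeq interval of Hoxa3 spans Hoxa4, Hoxa5 and Hoxa6, so regions between these central genes count for Hoxa3 and as anterior. An example is the region at 52191776 to 52192453, next to the end of Hoxa4 at 52191703. Hoxa3 had 3, 7 and 3 called in Wt replicates 2 to 4, 8 in Wt_IGF1, 4, 3, 4 and 6 in EF, 7 and 8 in EF_IGF1 and 5 in EF_IGF1_xeno. Hoxb9, which helps set thoracic identity, had 2, 0 and 2 in the same Wt libraries, 3 in Wt_IGF1, 2, 1, 6 and 6 in EF, 7 and 7 in EF_IGF1 and 3 in EF_IGF1_xeno. Its 6 and 6 on flowcell BSF_1013 lay above the 2 and 1 of the same EF lines on BSF_0654. Hoxc13, a gene of hair and nail, had 0, 4 and 5 in Wt, 7 in Wt_IGF1, 5, 3, 3 and 8 in EF, 7 and 6 in EF_IGF1 and 4 in EF_IGF1_xeno. Hoxd3 had 1, 1 and 2 in Wt, 1 in Wt_IGF1, 1, 2, 2 and 3 in EF, 4 and 4 in EF_IGF1 and 3 in EF_IGF1_xeno.

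EF was compared with Wt first, to find Hox regions that go with the EF label. A region was counted as gained when called in at least 3 of 4 EF and no Wt library, and as lost in the reverse case. With 4 libraries against 4, no single region can pass a correction over all regions, so these are counts with no test. In bulk libraries a region open in fewer cells and one less open per cell cannot be told apart. Of the 130 Hox regions, 2 were gained, against 1.19% of all regions, and 1 was lost, against 0.938%. Both shares (1.54% and 0.769%) were near their backgrounds, so the counts say nothing about the Hox regions as a set. As Wt replicate 1 called no Hox region, a loss needed calls in each of the other 3 Wt libraries.

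The 2 gained regions were posterior. One lay at Hoxb9 (chromosome 11, 96270914 to 96271537, overlapping the gene's lower end), with no peak in any Wt library and a fold of 5.28 in Wt_IGF1. In EF replicates 1, 3 and 4 its fold was 8.22, 4.87 and 8.19, with no peak in replicate 2, and in EF_IGF1 11.2 and 9.57, with 10.7 in EF_IGF1_xeno. It was present in each library with EF except the shortest list. The other lay 29885 bp outside Hoxc13 (chromosome 15, 102890892 to 102891246). It had no peak in any Wt library or Wt_IGF1, a fold of 8.33, 6.4, 7.14 and 9.65 in EF, 7.83 and 5.96 in EF_IGF1 and 6.94 in EF_IGF1_xeno. It was the one Hox region called in all 7 libraries with EF and none of the 5 without. The lost region lay 109 bp from Hoxb5 (chromosome 11, 96303124 to 96303403), a gene of lung and shoulder position, with a fold of 4.92, 5.62 and 6.84 in Wt replicates 2 to 4. It had no peak in Wt_IGF1 nor in any of the 7 libraries with EF.

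Within flowcell BSF_1013, with 2 of 2 EF and 0 of 2 Wt libraries, 6 Hox regions were gained, against 1.91% of all, and 2 lost, against 4.57%. The share gained was 4.62%, and 5 of the 6 lay in cluster b. They were the 2 above, 2 more at Hoxb9, and the promoters of Hoxb13 and Hoxb4. The Hoxb13 promoter region (chromosome 11, 96193732 to 96194868), of the most posterior gene of cluster b, had a fold of 8.61 and 7.2 in EF replicates 3 and 4. It had 10.7 and 11.4 in EF_IGF1 and 10.7 in EF_IGF1_xeno. It had no peak in Wt, Wt_IGF1 or EF replicates 1 and 2, so the same 2 lines lacked it on the other flowcell. The Hoxb4 promoter had a fold of 5.46 in Wt replicate 2, 4.74 and 5.13 in EF replicates 3 and 4, 9.06 and 8.95 in EF_IGF1 and 7.5 in EF_IGF1_xeno. The second lost region lay 32332 bp outside Hoxc4 (chromosome 15, 103069188 to 103069742), with a fold of 7.65, 13.1 and 10.4 in Wt replicates 3 and 4 and Wt_IGF1 and no peak elsewhere. The Wt cultures differ between the flowcells, so culture and flowcell cannot be told apart.

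IGF1 in EF was then read on flowcell BSF_1013, where each group has 2 libraries. Calls in both EF_IGF1 and neither EF library were found at 13 Hox regions, against 2.7% of all regions, and the reverse at 0, against 2.08%. The 13 are 10% of the Hox regions. They lay at 10 genes of all 4 clusters, 6 of them in cluster b, 4 in c, 2 in d and 1 in a, and 7 were posterior, 5 central and 1 anterior. Only 5 lay within 1 kb of a promoter. They were weak peaks, with folds from 2.64 to 11.3, a median of 4.83 and a median percentile of 21.4 within their libraries. With 2 libraries against 2, there is no test.

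Because the library labelled S_220 went against its label, the comparison was read within line S_221 alone, 1 library against 1. There, 23 Hox regions (17.7%) were called with IGF1 only, against 8.05% of all regions, and 13 (10%) without IGF1 only, against 10.9%. The 13 are among the 23 by construction, so this is no independent count, and the share without IGF1 was near its background. The count of 0 lost regions in the 4-library comparison was 12 without EF replicate 3 and 18 without EF replicate 4, where 1 EF line remains. The 13 gained regions were 14 without EF replicate 3 and 33 without EF replicate 4. Among the 20000 strongest peaks of each library 2 Hox regions were gained and 1 lost.

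The strongest gained region lay 28723 bp outside Hoxc13 (chromosome 15, 102891877 to 102892408), next to the EF region named above. Its fold was 11.3 and 7.85 in EF_IGF1 and 7.55 in EF_IGF1_xeno, with no peak in the other 9 libraries. Hoxb7 had a region across its lower end (chromosome 11, 96285172 to 96285696, tied with Hoxb8) with a fold of 4.81 and 6.89 in EF_IGF1, 5.49 in EF_IGF1_xeno and none elsewhere. Hoxb6, next to it, had one 146 bp from the gene (96292076 to 96292668) with 5.23 and 5.73 in EF_IGF1, 6.7 in EF_IGF1_xeno and 4.76 in EF replicate 1. A second Hoxb6 region (96292948 to 96293641) had 4.77, 4.11 and 3.38 in the same 3 libraries and none elsewhere. Calls in both EF_IGF1 libraries and EF_IGF1_xeno and in none of the other 9 were thus found at 3 regions (Hoxb7, Hoxb6 and Hoxc13), which is 2.31% of Hox regions, against 0.696% of all. This last set was defined after values were seen.

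The other gained regions were seen in EF_IGF1 and in almost no other library. Hoxb13 had one 3106 bp away with a fold of 6.6 and 4.86, and Hoxb9 one 20062 bp away with 3.83 and 4.93. Hoxc12 had one 7568 bp away with 6.03 and 6.07, and none of these 3 was called in any other library. Hoxd13, a gene of the digits, had one 192 bp away with 5.86 and 6, and Hoxd3 one 540 bp away with 3.18 and 3.4. Hoxa7 had one 1519 bp away with 2.64 and 3.1. These 3 were also called in no library outside EF_IGF1. Hoxc9 had a region at its lower end with 3.25 and 4.36 in EF_IGF1 and 3.97 in Wt_IGF1. Of the 13 regions, 4 were called in EF_IGF1_xeno, 1 each in Wt replicate 4, Wt_IGF1 and EF replicate 1, and 0 in Wt replicates 1 to 3 and EF replicate 2. Of all 4135 regions gained with IGF1 in EF, EF_IGF1_xeno called 47.3% and Wt_IGF1 33.3%.

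IGF1 in Wt was read as Wt_IGF1 against Wt replicate 3, both of culture BM, 1 library against 1. Hox regions called with IGF1 only numbered 21 (16.2%), against 18.5% of all regions, and those called without IGF1 only numbered 2 (1.54%), against 1.98%. Both shares were near their background. The 2 regions were the Hoxb5 region lost in EF and 1 at Hoxc8. Of the 21, 12 were posterior, among them 3 each at Hoxb9 and Hoxc13, and 1 was the Hoxc9 region that EF_IGF1 also called.

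EF_IGF1_xeno was set against EF_IGF1 replicate 2, of the same line name and flowcell. It alone called 1 Hox region, 0.769%, against 1.98% of all, at Hoxb1, the most anterior gene of cluster b. The EF_IGF1 library alone called 24 (18.5%), against 14.8% of all, and its list had 63506 peaks to 43416. Of the 24, 12 were posterior, 7 central and 5 anterior, with 4 at Hoxb9 and 4 at Hoxc4. Hoxa5 kept its promoter region (fold 5.92 in EF_IGF1 replicate 2 and 6.57 in EF_IGF1_xeno), as did Hoxd9 (8.67 and 8.49).

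The 2 EF lines differed from each other at Hox genes on both flowcells. This comparison was added after values were seen. Regions called in both S_220 libraries and neither S_221 library numbered 10 (7.69%), against 5.38% of all, and the opposite kind numbered 5 (3.85%), against 2.57%. These shares were not far above their backgrounds, and the description concerns which genes they were. The 10 were at Hoxa11, Hoxa13, Hoxc11 (2), Hoxc12, Hoxd11, Hoxc6 (2) and Hoxc4 (2), so 6 were posterior, all of paralogs 11 to 13. The 5 were at Hoxa5, Hoxc4, Hoxc6, Hoxd3 and Hoxd9, so 1 was posterior. None of the 15 lay in cluster b.

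The Hoxa13 promoter, of a gene needed for digits and hindgut and printed above, had a fold of 5.45 and 6.87 in the S_220 libraries and 6.56 in Wt replicate 4. It had no peak in the other 9 libraries. Hoxd11, at its first start, printed above, had 5.77 and 8.85 in the same S_220 libraries, 7.03 in Wt replicate 4 and none in the other 9. No library had a peak over the window of its second start (chromosome 2, 74682073 to 74682372). Hoxc11 had a region at its lower end with 5 and 5.37 in S_220, 5.08 and 5.22 in Wt replicates 3 and 4 and 6.11 in Wt_IGF1. The strongest of the 10, inside Hoxc4 (chromosome 15, 103032684 to 103033332), had 13.5 and 12.2 in S_220 and none in the other 10 libraries.

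In the opposite direction, the Hoxa5 promoter (chromosome 6, 52203199 to 52204663), a gene of the neck, lung and shoulder, had a fold of 5.71 and 5.73 in the S_221 libraries. It had 4.88 and 5.92 in EF_IGF1, 6.57 in EF_IGF1_xeno and no peak in the 5 libraries without EF. Hoxd9 (chromosome 2, 74697410 to 74698791) had 6.39 and 8.4 in S_221, 7.59 in Wt replicate 4, 7.1 in Wt_IGF1, 8.82 and 8.67 in EF_IGF1 and 8.49 in EF_IGF1_xeno. The library labelled S_220 of EF_IGF1 called 1 of the 10 regions of S_220 and 5 of the 5 of S_221. The library labelled S_221 called 2 and 4, and EF_IGF1_xeno 1 and 4. Wt replicates 3 and 4 and Wt_IGF1 called 3, 7 and 3 of the 10, and 1, 3 and 3 of the 5. Whether line, label or IGF1 accounts for the lack of paralog 11 calls in EF_IGF1 cannot be told apart here. That lack was also partly set by how the regions arose.

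Pairs of libraries were compared by the number of Hox regions called in both over the number called in either. The highest values were 0.762 for the 2 EF_IGF1 libraries and 0.662 for EF_IGF1 replicate 2 and EF_IGF1_xeno. EF replicate 4 of line S_221 had 0.586 with the library labelled S_220, and EF replicate 3, which carries the same label S_220, had 0.33. EF replicates 1 and 3, both S_220 on different flowcells, had 0.593, and Wt replicate 3 and Wt_IGF1, both BM, 0.596. EF replicates 2 and 4, both S_221, had 0.27, with 17 and 63 Hox regions called. Over all regions the 2 EF_IGF1 libraries had 0.66, and EF_IGF1 replicate 2 and EF_IGF1_xeno 0.595. The library labelled S_220 had 0.599 with EF replicate 4 and 0.406 with EF replicate 3. EF replicates 1 and 3 had 0.619, the BM pair 0.62 and EF replicates 2 and 4 0.377. The pattern was thus also that of the whole lists and is not particular to the Hox regions.

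**Figure D4:**
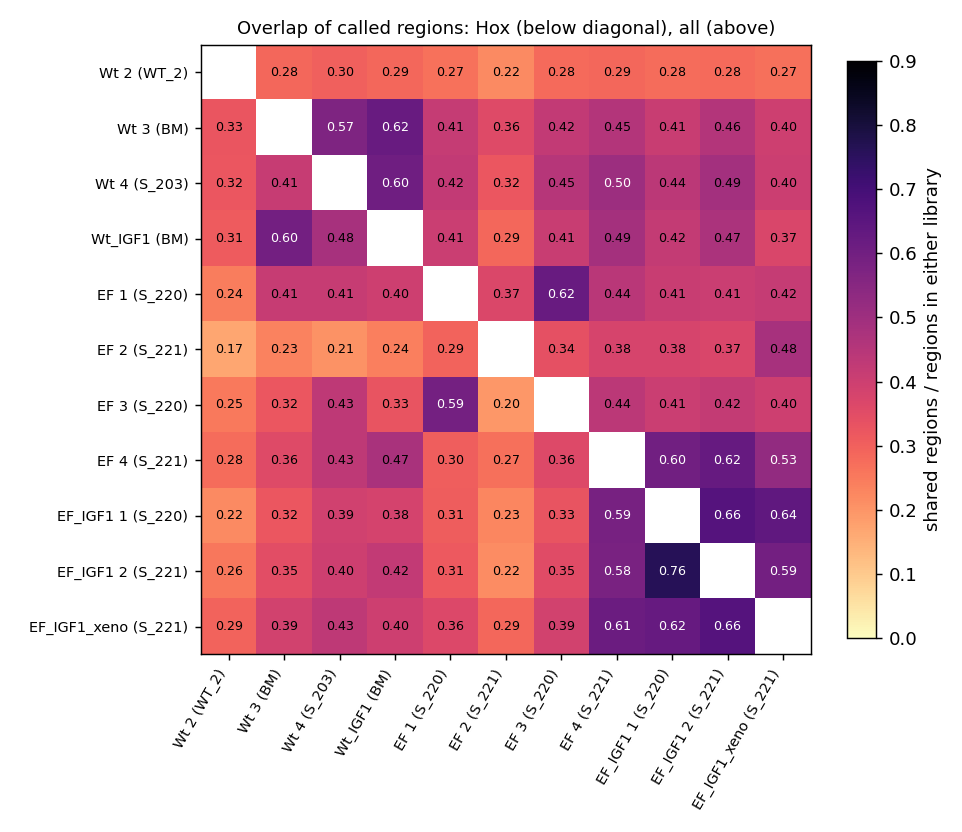
Shared regions divided by regions called in either library, for each pair of 11 libraries (line or culture name in brackets), at the 130 Hox regions below the diagonal and at all regions above it. Wt replicate 1, with no Hox call, is left out. EF_IGF1 1, labelled S_220, is nearer to EF 4 (S_221) than to EF 3 (S_220).

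The region inside Hoxc5 (chromosome 15, 103014681 to 103015852) also holds a microRNA gene, miR-615. Both arms are printed because this region was called only in EF replicate 4, both EF_IGF1 libraries and EF_IGF1_xeno, with a fold of 3.77, 4.57, 5.98 and 4.43. It was picked after values were seen. The seed, bases 2 to 8, is in capitals, and the arms have different seeds.
miR-615-5p: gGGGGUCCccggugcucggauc
miR-615-3p: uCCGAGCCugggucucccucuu

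Genes that work with or next to Hox genes were read in the same way. Of 185 regions at the TALE homeodomain cofactors of Hox proteins, 3 were gained (1.62%) and 5 lost (2.7%) with IGF1 in EF, against 2.7% and 2.08% of all regions. At Polycomb and trithorax regulators, 6 of 191 were gained (3.14%), among them Bmi1 and Cbx7, and 3 lost (1.57%), among them Ezh2. At upstream regulators, 5 of 215 were gained (2.33%) and 9 lost (4.19%), 6 of these at the retinoic acid receptor gene Rarb. At the genes next to the clusters, 6 of 227 were gained (2.64%) and 4 lost (1.76%). At limb position factors, 1 of 143 was gained (0.699%), at Tbx5, and 6 were lost (4.2%), 3 of them at Prrx1, the early limb mesenchyme gene. The ratio of the limb list was 0.76 and 0.725 in EF_IGF1 and 0.707 in EF_IGF1_xeno, and 0.461 to 1.11 in EF, so it lay within the EF range. The neighbours' ratio was 1.11, 1.06 and 1.15 in these 3 libraries and 1.03 to 1.15 in EF. The Polycomb and trithorax list had 1.34, 1.27 and 1.37, against 1.21 to 1.31 in EF. By the EF against Wt rule, 12 of the 961 regions of the 5 lists were gained (1.25%) and 7 lost (0.728%), near the 1.19% and 0.938% of all regions.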

How the data were processed

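Each of the 12 libraries has 1 narrowPeak list. Per the submitters' processing notes, peaks were called with MACS2 on GRCm38.p3, and per the labels' protocols reads were single-end. The sources used here name no aligner, filter or transposase shift. The deposited lists give a fold enrichment, a ratio over local background, a −log10 p and a −log10 q per peak, and the authors' score is 10 times the −log10 q. Lowest −log10 q values were 2.03 to 2.6. From these lists, peaks on chromosomes 1 to 19 and X (all but 23 to 43 per list) were merged (pandas 2.3.3, numpy 2.4.6, Python 3.11.15), assigned to the nearest of 21627 RefSeq protein-coding genes and counted as called or not. In 4 regions genes tied and the shortest was taken. The merging and assignment were tested on simulated peaks. Lists held 7748 to 83718 peaks.

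Values per library were given for each gene with a region gained or lost in EF or with IGF1 in EF, the gene with most regions per cluster, and the promoters open in most and fewest libraries per cluster. The members and lists were chosen with earlier results of these data known. Alternatives changed the peak cutoff, peak widths, list length, gene distance, flowcell, line and libraries left out. Nothing says that libraries of a group came from separate animals.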

Additional observations from a re-analysis of the deposited data

Results flagged for a closer look

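For 4 sets of Hox regions the change of the ratio with IGF1 had one sign in Wt and the other in both EF lines. The ratio is the share of the set called over the share of all regions called. This sign was read once each for all Hox regions, every cluster and every paralog class. The rest of the 40 values looked at were checks for outlying libraries. For cluster a it was -0.129 in Wt, 0.2 in EF line S_220 and 0.31 in EF line S_221. For cluster c it was -0.104 in Wt, 0.24 and 0.08 in the EF lines. Anterior regions had -0.04, 0.867 and 0.1, and central regions -0.199, 0.75 and 0.73. Each change rests on 1 library against 1 of the same label on flowcell BSF_1013, the library labelled S_220 went against that label, and the difference between Wt and EF was not tested.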

How the results depend on the processing

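Over all settings tried, 39 values stayed within 1.5 times or 1 SD of the main value and 35 moved. The mean share of Hox regions called was 34.2% and the mean number of open promoters 14.3. With the 20000 strongest peaks per library, EF had 1 gained and 0 lost regions, IGF1 in EF 2 and 1, IGF1 in Wt 1 and 1, EF_IGF1_xeno alone called 5 and EF_IGF1 alone 2, and 3.5 promoters were open on average. EF_IGF1_xeno alone called 2 regions with a −log10 q of 5 or more and 2 with windows around summits. Within 10 kb of the gene it called 0, and EF gained 1. On flowcell BSF_1013 EF had 6 gained and 2 lost regions, and with all 4 libraries of a side 1 and 0.

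Leaving out 1 library at a time, regions gained in EF ranged from 1 to 4 and lost from 0 to 3 (3 without EF replicate 4, 0 without Wt replicate 2, 3 or 4, where Wt replicate 1 must call). Regions gained with IGF1 in EF ranged from 14 to 33 and lost from 0 to 18. By line name as a replicate block, 44 were gained and 19 lost in S_220 alone and 23 and 13 in S_221 alone. The rule of 2 of 2 against 0 of 2 already requires both line names. The EF_IGF1 library labelled S_220 went against that label, so the S_220 counts may not compare 1 line with itself. Depth is unknown, so a missing peak in a short list (7748 peaks in Wt replicate 1, 27332 in EF replicate 2) does not show closed DNA.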
